A study of Arabidopsis thaliana with 42 samples.

Results

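Nuclear genes for photosynthesis were followed in whole roots of 7 Arabidopsis thaliana accessions. They were taken as the probe sets of the ATH1 array that its annotation pairs with exactly 1 gene and whose symbol begins with PSA, PSB, LHC, CAB, RBCS, PETE, PETC, GAPA, GAPB or FNR, or is RCA or CaS, with loci of the plastid genome left out. This gave 10 of the 22810 probe sets, 64 of which are controls that entered no test. Of the probe sets on the array, 14016 had an entry in the annotation and 13513 of these a single gene. Photosynthesis genes whose probe sets have no such entry, among them those of the Rubisco small subunit, plastocyanin and most chlorophyll a/b binding proteins, were not analysed here. The seedlings were of the natural accessions Col0, Kas2, NFA8, SQ8, TAMM27, Ts5 and Var2-1, grown for 12 days in liquid culture with 0.5 mM ammonium succinate as the nitrogen supply and 3 mM sucrose. Starting at dawn, the plants received KNO3 to 5 mM or, as the control, KCl to 5 mM for 2 hours, and whole roots were collected. Each of the 14 groups had 3 arrays, labelled as biological replicates, which made 42 arrays. In RNA from whole roots, more cells of a type and more RNA per cell cannot be told apart.

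Photosynthesis begins in the thylakoid membranes of the chloroplast, where photosystem II and photosystem I, fed by light-harvesting antenna proteins, move electrons from water towards NADP. The chemical energy made there drives the Calvin cycle, in which Rubisco fixes CO2. Most subunits are encoded in the nucleus and imported into the plastid, and their genes are highly expressed in green leaves and usually kept low in roots, whose plastids are mostly not green.

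The 10 genes covered 5 roles. For photosystem I there were PSAE-1 (probe set 253738_at, locus AT4G28750), a subunit on the stromal side where ferredoxin docks, and PSAN (247320_at, AT5G64040), a subunit on the lumenal side. For photosystem II there were PSBW (267526_at, AT2G30570), a small membrane subunit that stabilises the complex with its antenna, PSBY (245195_at, AT1G67740), another small membrane subunit, and PSB27 (264837_at, AT1G03600), a lumenal factor of assembly and repair. The minor antenna protein CP29 was represented by all of its genes, LHCB4.1 (251082_at, AT5G01530), LHCB4.2 (258993_at, AT3G08940) and LHCB4.3 (265722_at, AT2G40100). Carbon fixation was represented by RCA (245061_at, AT2G39730), Rubisco activase, which removes inhibitory sugar phosphates from Rubisco. The last was CaS (249876_at, AT5G23060), a thylakoid calcium-sensing protein.

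The values were MAS5 signals, a linear brightness scale on which levels of different probe sets cannot be compared. All 10 probe sets were tested. The mean signal over the 42 arrays was at least 100, the detection level set in the study's Methods, for 9 of them, and 80.7 for LHCB4.3. Array medians were 97.5 to 157.6. A gene is called below where the Benjamini-Hochberg adjusted p of limma's test over all probe sets that are not controls was at most 0.1, and fold changes and differences are on the log2(signal + 1) scale.

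One array stood apart from the other 41 before any comparison. Var2-1 KNO3 replicate 1 gave the highest signal of all 42 arrays for 9 of the 10 genes, all but LHCB4.3, while 8.1% of all probe sets had their highest signal on it. RCA had 12585 on that array, against 221 and 398 on the other Var2-1 KNO3 arrays. PSAE-1 had 10553, against 53.2 and 117.6, and LHCB4.2 had 7389, against 66.3 and 79.1. The excess over the mean of its 2 fellow replicates was 124-fold for PSAE-1, 102-fold for LHCB4.2, 56.4-fold for CaS and 41.8-fold for LHCB4.1. It was smaller for the small photosystem II subunit PSBY (10.4-fold) and the assembly factor PSB27 (7.81-fold), and LHCB4.3 had 132.0, against 52.0 and 58.3. The Var2-1 KCl roots had 135.9, 233.3 and 386.3 for RCA, close to the other replicates of the KNO3 group, so the mean of that group describes none of its arrays. Where leaving it out changed how many of the 10 genes were called in a comparison, both counts are given.

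**Figure D1:**
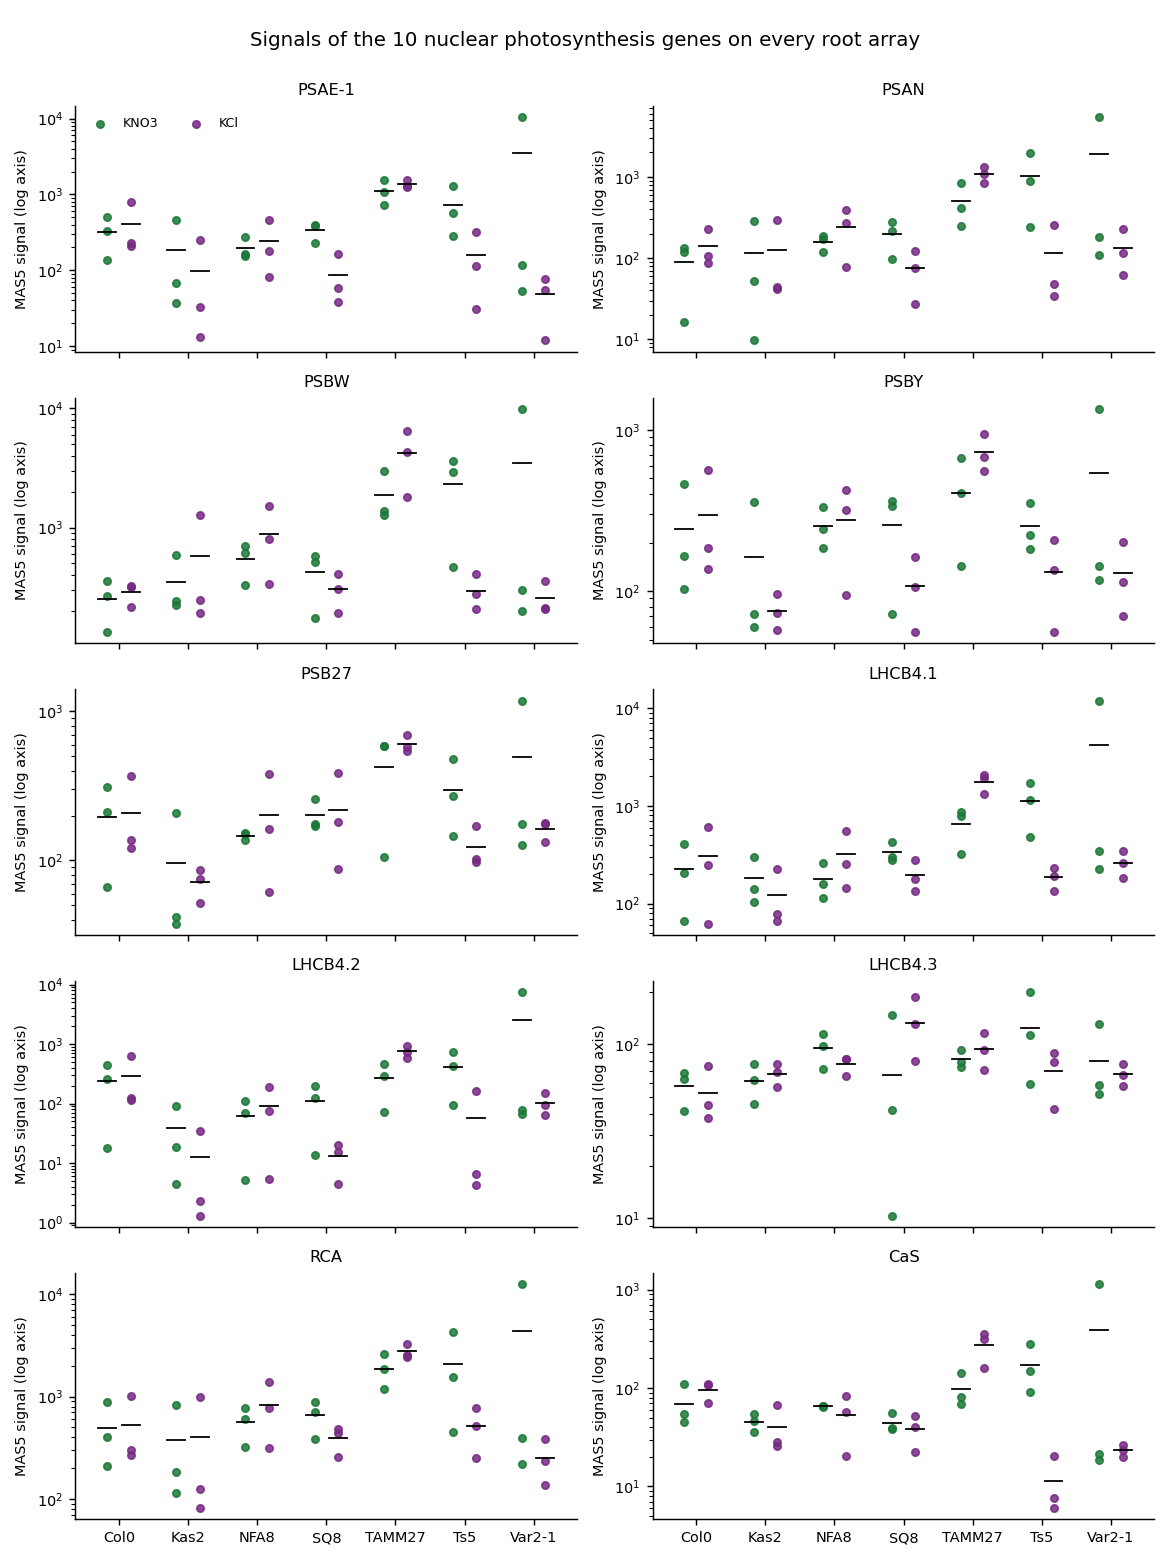
MAS5 signal (log axis) of each gene on all 42 arrays by accession, with KNO3 roots (green) left of KCl roots (purple); points are arrays and black lines are means of 3. The TAMM27 KCl arrays sit high for all genes but LHCB4.3, Ts5 KNO3 arrays sit above Ts5 KCl arrays for several, and 1 Var2-1 KNO3 array lies far above its replicates (12585 for RCA).

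The first comparison asked whether the accessions differed in these genes irrespective of nitrogen. In the test among the 7 accessions, averaged over both treatments, 9 of the 10 genes were called, against 47.7% of all probe sets. Adjusted p ran from 0.00166 for PSBW to 0.0487 for CaS, and LHCB4.3 was not called (adjusted p = 0.640). The count was again 9 without Var2-1 KNO3 replicate 1, against 51.4% of all probe sets. CaS was not called when TAMM27 KCl replicate 1, TAMM27 KCl replicate 2 or TAMM27 KNO3 replicate 1 was left out, which made the count 8.

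TAMM27 was the accession with the highest mean of log2 signals for all 10 genes. For LHCB4.3 that was by little, since this mean, turned back into a signal, was 86.7 in TAMM27 and 86.2 in Ts5. Against the mean of the other 6 accessions, 9 of the 10 were called higher in TAMM27, against 6.56% of all probe sets, and LHCB4.3 was the one not called. The median difference of the 10 genes was 2.1 on the log2 scale, beside -0.00449 over all probe sets. The photosystem I gene PSAE-1 was 7.26-fold higher (log2 difference 2.86 ± 0.64, SE, adjusted p = 0.00358) and the photosystem II gene PSBW 5.94-fold higher (2.57 ± 0.48, adjusted p = 0.000553).

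By array, PSAE-1 had 1078, 721 and 1573 in TAMM27 KNO3 roots and 1278, 1264 and 1539 in TAMM27 KCl roots, against 11.9 to 10553 with a median of 174 on the 36 arrays of the other accessions. Of these 36 arrays, 3 exceeded the lowest TAMM27 value and 2 its median, Ts5 KNO3 replicate 1 and Var2-1 KNO3 replicate 1. The other photosystem I gene, PSAN, had 850, 250.3 and 413 in TAMM27 KNO3 roots and 1319, 1081 and 834 in TAMM27 KCl roots, against a median of 121.2 in the others. Its groups overlapped more, since 9 of the 36 arrays lay above the lowest TAMM27 value, and the difference was 2.32 ± 0.59 (adjusted p = 0.0109).

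Among the photosystem II genes, PSBW had 2989, 1365 and 1279 in TAMM27 KNO3 roots and 6457, 4330 and 1788 in TAMM27 KCl roots, against 132.5 to 9924 with a median of 324 in the others. For this gene 5 of the 36 arrays exceeded the lowest TAMM27 value. PSBY and PSB27 differed least of the 9, by 1.55 ± 0.42 (adjusted p = 0.0177) and 1.52 ± 0.40 (adjusted p = 0.0129). One TAMM27 array, KNO3 replicate 2, had low values of both, 143.3 for PSBY and 104.8 for PSB27, and 20 and 26 of the 36 other arrays lay above these.

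The CP29 genes split. LHCB4.1 had 858, 322 and 794 in TAMM27 KNO3 roots and 1926, 2078 and 1307 in TAMM27 KCl roots, against 61.9 to 11956 with a median of 239.7 in the others, and the difference was 1.99 ± 0.47 (adjusted p = 0.00599). LHCB4.2 had 458, 71.8 and 287 in TAMM27 KNO3 roots and 942, 589 and 724 in TAMM27 KCl roots, against 1.3 to 7389 with a median of 76.4, a difference of 2.81 ± 0.82 (adjusted p = 0.0276). LHCB4.3, whose product is a shorter form that is also classed as LHCB8, had 93.4, 74.5 and 79.0 in TAMM27 KNO3 roots and 92.4, 116.8 and 71.7 in TAMM27 KCl roots, against 10.3 to 199.8 with a median of 71.1. The 6 TAMM27 arrays lay inside the range of the others for LHCB4.3, and its difference was 0.29 ± 0.31 (adjusted p = 0.618).

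RCA had 2606, 1185 and 1845 in TAMM27 KNO3 roots and 3285, 2441 and 2565 in TAMM27 KCl roots, against 82.2 to 12585 with a median of 418 in the others, which was 4.62-fold higher (2.21 ± 0.52, adjusted p = 0.00620). CaS had 142.8, 69.6 and 81.9 in TAMM27 KNO3 roots and 351.6, 312.9 and 160.5 in TAMM27 KCl roots, against 6.1 to 1137 with a median of 49.1, a difference of 1.69 ± 0.45 (adjusted p = 0.0159). For each of these genes, 2 arrays of other accessions exceeded the TAMM27 median. The 9 differences ranged from 1.61 to 3.06 without Var2-1 KNO3 replicate 1, and all 9 were again called, against 8.28% of all probe sets called higher. The log2 ratio of 3′ to 5′ control probe sets, a measure of RNA integrity, was 0.552 to 2.60 with a median of 2.48 on the TAMM27 arrays and 0.301 to 3.91 with a median of 1.41 on the others. With that ratio as a covariate 9 genes were again called in TAMM27. For this fit the share of all probe sets called is not given, and the part of RNA integrity was not tested further.

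The TAMM27 differences had larger values in the KCl roots than in the KNO3 roots, and the change between treatments was tested only through the nitrogen responses and the interaction given further on. Over KCl arrays alone, a comparison added after the data were seen, the same 9 genes were called higher in TAMM27, with differences from 2.11 for PSB27 to 4.47 for LHCB4.2, against 1.31% of all probe sets. For 7 of the 10 genes, all 3 TAMM27 KCl arrays lay above all 18 KCl arrays of the other accessions, as they did for 0.972% of all probe sets. For PSBY and LHCB4.2 a single array of the others, Col0 KCl replicate 3, came above the lowest TAMM27 KCl value (552.2 in TAMM27, against 562.5, for PSBY, and 588.7 in TAMM27, against 630.5, for LHCB4.2). Over KNO3 arrays alone the differences were 0.25 to 1.94 and limma called 0 of the 10, against 1.82% of all probe sets called higher. Of the 10 genes, 3 had an unadjusted p under 0.05, as had 3576 of all probe sets. The KNO3 comparison without Var2-1 KNO3 replicate 1 called 3, PSAE-1 (2.34 ± 0.68, adjusted p = 0.0487), PSBW (2.02 ± 0.51, adjusted p = 0.0184) and RCA (1.84 ± 0.59, adjusted p = 0.0765), against 2.7% of all probe sets.

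Kas2 lay at the other end. Its mean of log2 signals was the lowest of the accessions for 7 genes, PSAE-1, PSAN, PSBY, PSB27, LHCB4.1, LHCB4.2 and RCA, and these 7 were called lower in Kas2 than in the mean of the other 6 accessions, against 5.98% of all probe sets. LHCB4.2 differed most (-3.11 ± 0.82, adjusted p = 0.0157), with 4.5, 18.4 and 92.1 in Kas2 KNO3 roots and 2.3, 1.3 and 34.2 in Kas2 KCl roots. All 6 of these values lie below the detection level of 100, and the difference was -2.08 with a pseudocount of 16. PSB27 differed by -1.59 ± 0.40 (adjusted p = 0.0102), with 41.7, 37.5 and 207.7 in Kas2 KNO3 roots and 75.7, 51.8 and 86.7 in Kas2 KCl roots. RCA differed by -1.54 ± 0.52 (adjusted p = 0.0646). The call of PSAN was close to the threshold (adjusted p = 0.0931) and was lost in 25 of the 42 repeats with a single array removed, while PSB27 was called in all 42.

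The Kas2 arrays were not alike. RCA had 182.7, 113.5 and 831 in Kas2 KNO3 roots and 82.2, 124.5 and 996 in Kas2 KCl roots, so that 1 array of each treatment, labelled replicate 3 in both, was several times higher than the rest. PSBW had 222.2, 244.2 and 584.5 in Kas2 KNO3 roots and 190.4, 247.6 and 1285 in Kas2 KCl roots, with the same arrays high, and its difference was not called (-0.74 ± 0.48, adjusted p = 0.383). The count of 7 rested on the low arrays. It was 2, 2, 1 and 2 without Kas2 KCl replicate 1, KCl replicate 2, KNO3 replicate 1 and KNO3 replicate 2. A measure of RNA integrity differed too: the log2 ratio of 3′ to 5′ control probe sets was 1.45 to 3.76 with a median of 3.15 on the Kas2 arrays, and 0.301 to 3.91 with a median of 1.35 on the others. With that ratio as a covariate 3 Kas2 genes were called. For this fit and for the repeats without a Kas2 array, the share of all probe sets called is not given. Limma called 0 of the Kas2 genes over KNO3 arrays alone or KCl arrays alone, against 1.61% and 2.41% of all probe sets called lower. The KCl arrays alone gave 3 calls in the fit that left out Var2-1 KNO3 replicate 1, LHCB4.2 (-3.51 ± 1.03, adjusted p = 0.0513), LHCB4.1 (-1.53 ± 0.49, adjusted p = 0.0755) and PSB27 (-1.49 ± 0.50, adjusted p = 0.0997), against 2.95% of all probe sets called lower.

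**Figure D2:**
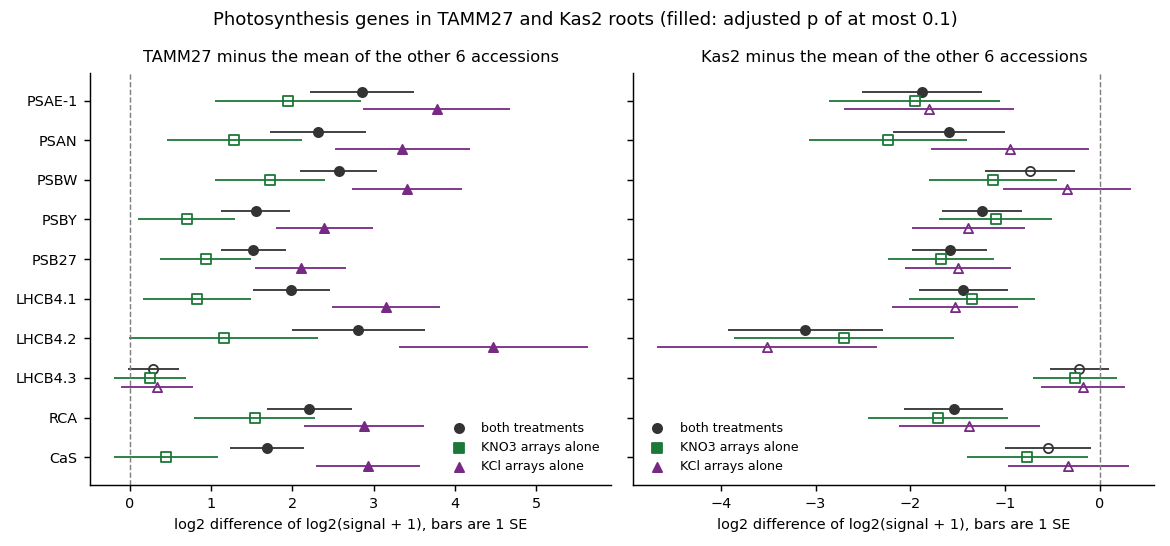
Difference of TAMM27 (left) and of Kas2 (right) from the mean of the other 6 accessions in log2(signal + 1), for both treatments together (circles), KNO3 arrays alone (squares) and KCl arrays alone (triangles); bars are 1 SE and filled symbols have an adjusted p of at most 0.1. For both treatments together all genes but LHCB4.3 lie between 1.52 and 2.86 in TAMM27, with larger values in KCl than in KNO3, and 7 of 10 are called lower in Kas2 over both treatments.

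Of the remaining accessions, Col0 had 1 gene called, PSBW, which was lower than in the other 6 (-1.28 ± 0.48, adjusted p = 0.0751, against 8.52% of all probe sets called lower). It had 265.7, 132.5 and 355.9 in Col0 KNO3 roots and 217.5, 317.9 and 321.3 in Col0 KCl roots. That call was lost when any Col0 array other than KNO3 replicate 3 was left out, and over KNO3 arrays alone or KCl arrays alone, where 2.14% and 2.66% of all probe sets were called lower. Limma called 0 of the 10 genes for NFA8, SQ8, Ts5 and Var2-1, against 2.73, 17.6, 17.3 and 6.65% of all probe sets. In each, 0 of the 10 had an unadjusted p under 0.05, against 2741, 6259, 6007 and 3687 of all probe sets. When Var2-1 KNO3 replicate 1 was left out, 3 genes were called lower in Var2-1, against 4.42% of all probe sets: PSAE-1 (-2.12 ± 0.53, adjusted p = 0.0131), CaS (-1.42 ± 0.33, adjusted p = 0.00663) and PSBW (-1.18 ± 0.39, adjusted p = 0.0769). Over KNO3 arrays alone limma called 0 of the 10 higher in Ts5, against 2.93% of all probe sets, and 4 with that array left out, against 4.35%: LHCB4.1 (1.94 ± 0.49, adjusted p = 0.0180), PSBW (1.99 ± 0.51, adjusted p = 0.0193), CaS (1.61 ± 0.42, adjusted p = 0.0236) and PSAN (2.47 ± 0.72, adjusted p = 0.0394).

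In NFA8, RCA had 604.9, 768.5 and 323.4 in KNO3 roots and 1391, 312.8 and 765.9 in KCl roots, and PSAE-1 had 271.8, 156.5 and 166.1 in KNO3 roots and 462.5, 81.8 and 182.3 in KCl roots, with the same KCl array highest for both. In SQ8, PSAE-1 had 231.7, 392.8 and 381.2 in KNO3 roots, against 37.7, 161.9 and 58.1 in KCl roots. The difference was not called (2.18 ± 1.18, adjusted p = 0.504). RCA had 389.2, 895.7 and 708.3 in SQ8 KNO3 roots and 485.9, 436.2 and 255.3 in SQ8 KCl roots.

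The second comparison asked whether KNO3 changed these genes within the 2 hours. Averaged over the 7 accessions, limma called 0 of the 10, against 0.339% of all probe sets. An unadjusted p under 0.05 was found for 1739 of all probe sets and for 2 of the 10 genes. These were PSAE-1, with a difference of 1.23 ± 0.45 (KNO3 minus KCl, adjusted p = 0.423), and CaS, with 0.66 ± 0.32 (adjusted p = 0.635). The 10 differences ran from -0.09 for LHCB4.3 to 1.23, with a median of 0.50, beside 0.02 over all probe sets. Their median was 0.25 without Var2-1 KNO3 replicate 1, and limma again called 0, against 0.4% of all probe sets. In that fit 1 of the 10 had an unadjusted p under 0.05, as had 1678 of all probe sets.

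In single accessions 1 gene was called, CaS in Ts5, against 0.444% of all probe sets called higher there. CaS had 278.6, 148.4 and 90.1 in Ts5 KNO3 roots, against 6.1, 20.5 and 7.6 in Ts5 KCl roots, and the groups did not overlap. The Ts5 KCl values lie below the detection level. The difference was 3.83 ± 0.84 (adjusted p = 0.0345), or 2.69 with a pseudocount of 16, and it was called under every alternative that was tried at a threshold of 0.1 (adjusted p at most 0.0949 when any 1 array was left out). Over KCl arrays alone, CaS was called lower in Ts5 than in the other 6 accessions (-2.41 ± 0.64, adjusted p = 0.0232), against 4.36% of all probe sets, and it was the only one of the 10 genes so called.

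The other genes of Ts5 lay higher in KNO3 too, without passing the test. RCA had 4331, 1540 and 448 in Ts5 KNO3 roots, against 249.6, 770 and 512 in Ts5 KCl roots, and LHCB4.1 had 1721, 1135 and 478, against 229.6, 193.4 and 134.6. PSBW had 3594, 2914 and 466 in Ts5 KNO3 roots, against 205.4, 406.4 and 275.7 in Ts5 KCl roots. The 3 KNO3 arrays lay above the 3 KCl arrays for 3 genes, PSBW, LHCB4.1 and CaS, as they did for 5.47% of all probe sets. The KNO3 arrays differed among themselves, with replicate 1 highest and replicate 3 lowest for 9 of the 10 genes, all but LHCB4.3. Their 3′ to 5′ log2 ratios were 2.82, 3.32 and 0.700 in KNO3 and 2.95, 0.717 and 2.84 in KCl. The part of RNA integrity in the Ts5 values was not tested beyond the covariate fit, which called 1 gene (share of all probe sets not given).

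All 10 differences in Ts5 were above 0, from 0.72 for LHCB4.3 to 4.04 for LHCB4.2, with a median of 2.45 beside 0.07 over all probe sets. Leaving out Var2-1 KNO3 replicate 1, with which the residual SD of CaS was 1.06 and without which it was 0.60, 4 were called, CaS, PSBW (2.57 ± 0.66, adjusted p = 0.0677), LHCB4.1 (2.42 ± 0.64, adjusted p = 0.0724) and PSAN (3.30 ± 0.93, adjusted p = 0.0929), against 0.818% of all probe sets called higher. The count was 2 without Ts5 KCl replicate 2 (CaS and PSAN) and 2 without Ts5 KNO3 replicate 3 (CaS and PSBW). For these fits the share of all probe sets called is not given, so the counts do not show whether the change was particular to these genes.

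In TAMM27 all 10 differences were below 0, from -0.16 for LHCB4.3 to -1.80 for LHCB4.2, with a median of -1.07. Limma called 0 of them, against 0.0747% of all probe sets. At an unadjusted p under 0.05 there were 0 of the 10, against 728 of all probe sets. Without Var2-1 KNO3 replicate 1 there were 2 at that level (CaS and LHCB4.1), against 818 of all probe sets. All 3 KNO3 arrays lay below all 3 KCl arrays for LHCB4.1, LHCB4.2 and CaS, as they did for 5.83% of all probe sets. In Var2-1 the differences were 0.14 to 3.41 and limma called 0, as it did of all probe sets. Of the 10 genes, 4 had an unadjusted p under 0.05, as had 733 of all probe sets. Without Var2-1 KNO3 replicate 1 the differences were -0.42 to 1.06, with a median of 0.06, and 5 of the 10 were below 0. In that fit 0 of the 10 had an unadjusted p under 0.05, against 296 of all probe sets. In SQ8 limma called 0, against 0.312% of all probe sets. An unadjusted p under 0.05 was found for 2543 of all probe sets and for 1 of the 10 genes. That gene was LHCB4.3, with 10.3, 41.9 and 147.2 in KNO3 roots, against 79.9, 131.4 and 187.1 in KCl roots. When SQ8 KNO3 replicate 3, its highest KNO3 array for LHCB4.3, was left out, LHCB4.3 was called (-2.52 ± 0.55, adjusted p = 0.0388). For that fit the share of all probe sets called is not given. In Col0, Kas2 and NFA8 limma called 0, against 0, 0.361 and 0.0132% of all probe sets. In each, 0 of the 10 had an unadjusted p under 0.05, against 495, 1543 and 719 of all probe sets.

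**Figure D3:**
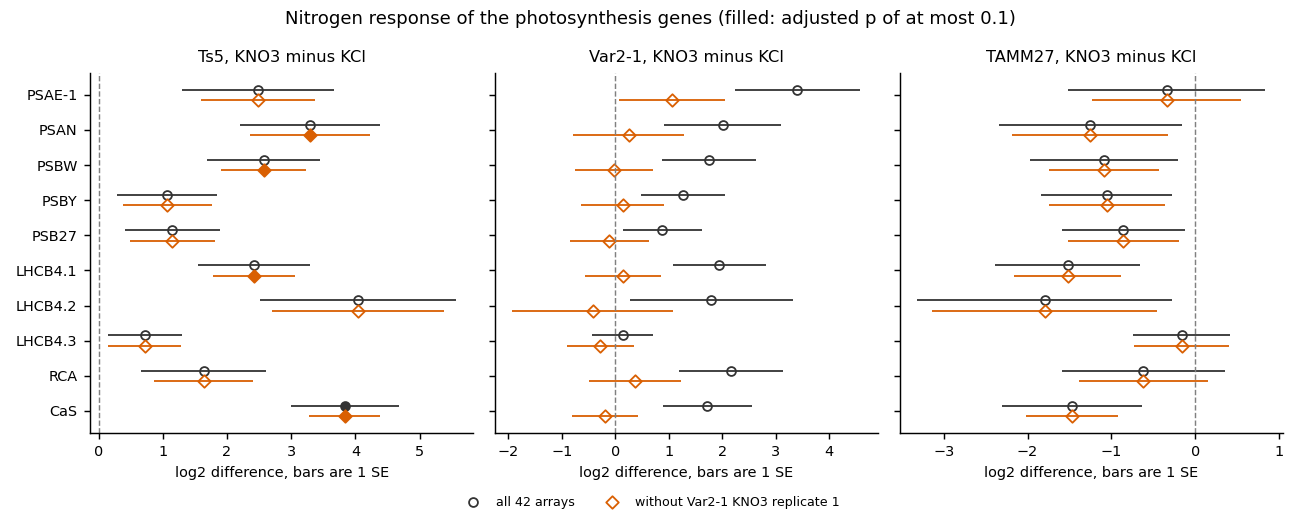
KNO3 minus KCl in log2(signal + 1) in Ts5, Var2-1 and TAMM27 roots, from all 42 arrays (circles) and without Var2-1 KNO3 replicate 1 (diamonds); bars are 1 SE and filled symbols have an adjusted p of at most 0.1. The 10 differences are above 0 in Ts5 and below 0 in TAMM27, and those of Var2-1 spread around 0 once the single array is left out.

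Whether the response differed between accessions was asked by the interaction of nitrogen and accession. Limma called 0 of the 10 genes, against 0.11% of all probe sets. Of the 10, 3 had an unadjusted p under 0.05, as had 1293 of all probe sets. These 3 were CaS (adjusted p = 0.447), LHCB4.1 (adjusted p = 0.811) and PSAN (adjusted p = 0.840). CaS was called without Var2-1 KNO3 replicate 1 (adjusted p = 0.00934), against 0.171% of all probe sets. Its response was then 3.83 in Ts5, -1.47 in TAMM27 and -0.20 in Var2-1. The opposite signs of the Ts5 and TAMM27 responses were not tested gene by gene.

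Between replicates of a group, all of these genes but LHCB4.3 varied more than the median probe set. The residual SD of log2 signals about the 14 group means was 2.07 for LHCB4.2, 1.61 for PSAE-1, 1.48 for PSAN and 1.32 for RCA, beside a median of 0.80 over all probe sets. LHCB4.2 exceeded 99.8% of all probe sets, and 99.7% without Var2-1 KNO3 replicate 1. LHCB4.3 had 0.67. Without Var2-1 KNO3 replicate 1, CaS had 0.60, LHCB4.1 0.85, PSBW 0.89 and RCA 1.05, beside a median of 0.78 over all probe sets.

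The genes varied together from array to array, as a description over 42 arrays that share 14 groups, with no test. Pearson's r between any 2 of the 9 genes other than LHCB4.3 was 0.660 to 0.917 with a median of 0.790, and 0.591 to 0.897 with a median of 0.748 without Var2-1 KNO3 replicate 1. RCA and PSAN were the closest pair. LHCB4.3 had r = 0.239 with the mean of the others over all arrays and 0.171 without the single array. Of the CP29 genes, LHCB4.1 had r = 0.883 with RCA, and LHCB4.3 stayed between 10.3 and 199.8 on arrays whose RCA ranged from 82.2 to 12585.

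**Figure D4:**
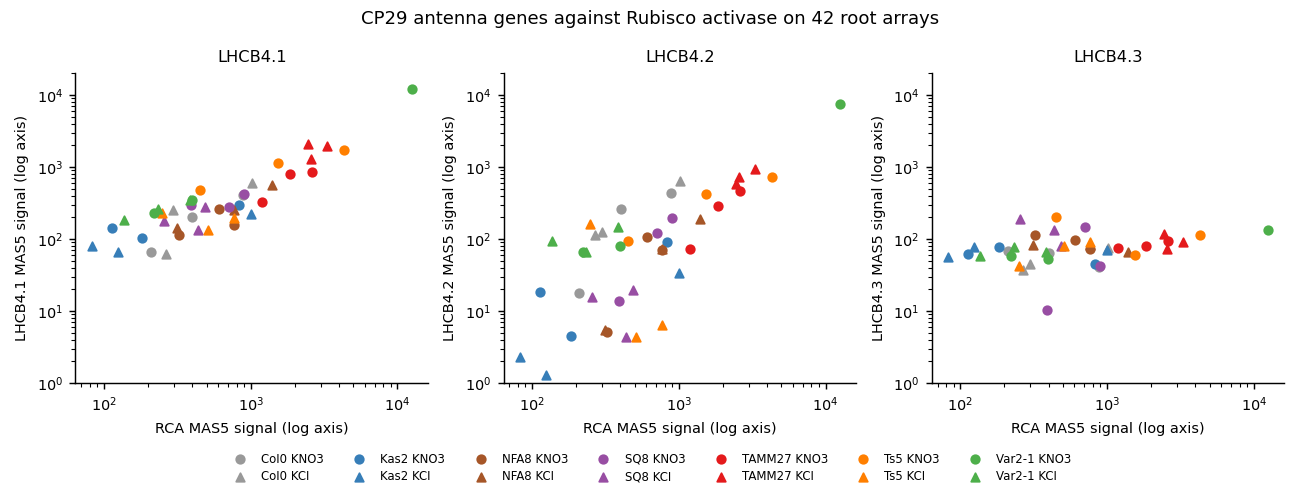
Signals of the CP29 antenna genes LHCB4.1, LHCB4.2 and LHCB4.3 against that of Rubisco activase (RCA) on the 42 arrays, all axes logarithmic; colours are accessions, circles KNO3 roots and triangles KCl roots. LHCB4.1 and LHCB4.2 climb with RCA, and LHCB4.3 stays at 199.8 or less.

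Among 1472 probe sets outside the set with a single named gene, the 10 most like the mean log2 signal of the members were led by HPR, the peroxisomal hydroxypyruvate reductase of photorespiration (r = 0.931), and ATPC1, the gamma subunit of the chloroplast ATP synthase (r = 0.928). PRK, phosphoribulokinase of the Calvin cycle, had r = 0.883, ALDH11A3, a non-phosphorylating glyceraldehyde 3-phosphate dehydrogenase, had 0.874, and SBPASE, sedoheptulose bisphosphatase of the Calvin cycle, had 0.832. The others were UGT88A1, AOR, TROL, LIL3:2 and THI2.2, with r from 0.756 to 0.830, and the median over the 1472 was -0.00740. HPR and ATPC1 were again the closest without Var2-1 KNO3 replicate 1, with 0.909 and 0.906.

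Lists of related genes were read by the same tests, for those of their loci that the annotation pairs with a probe set of their own. Of 16 chlorophyll synthesis genes 5 were on hand, and 4 differed among accessions, against the 47.7% of all probe sets that did. CHLP, which makes the phytol tail of chlorophyll, PORB, a protochlorophyllide oxidoreductase, and CHLM, a methyltransferase of the magnesium branch, were called higher in TAMM27, by 1.62 ± 0.33 (adjusted p = 0.00159), 1.72 ± 0.37 (adjusted p = 0.00282) and 1.21 ± 0.34 (adjusted p = 0.0201), where 6.56% of all probe sets were called higher. The median of the 5 in TAMM27 was 1.21, beside -0.00449 over all probe sets. CHLP was called lower in Kas2 (-1.41 ± 0.33, adjusted p = 0.00638), against 5.98% of all probe sets. PORB had 41.9 to 161.4 in TAMM27 KNO3 roots and 165.7 to 335.7 in TAMM27 KCl roots, against 6.0 to 238.7 over all other groups.

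Of 12 Calvin cycle genes 2 were on hand, PRK and SBPASE, and 0 were called for TAMM27 (1.60 ± 0.63, adjusted p = 0.112, and 1.34 ± 0.53, adjusted p = 0.110). Both had an unadjusted p under 0.05, as had 5383 of all probe sets. In the fit without Var2-1 KNO3 replicate 1 both were called higher in TAMM27, with a median difference of 1.65, against 8.28% of all probe sets. Both were also called among accessions in that fit, against 51.4% of all probe sets. With that array 0 were called among accessions, against 47.7%. Of 12 photorespiration genes 3 were on hand and HPR1, listed as HPR in the annotation, was called higher in TAMM27 (2.17 ± 0.60, adjusted p = 0.0204). Its difference in Ts5 was 3.76 ± 1.12 (KNO3 minus KCl, adjusted p = 0.129), with 224.6 to 2152 in KNO3 roots and 18.1 to 106.4 in KCl roots. Of 8 genes of the thylakoid ATP synthase, leaf ferredoxin and cyclic electron flow 2 were on hand. ATPC1 was called higher in TAMM27 (1.96 ± 0.42, adjusted p = 0.00284), against 6.56% of all probe sets. It was called lower in Kas2 (-1.71 ± 0.42, adjusted p = 0.00977), against 5.98%. It had 318 to 1147 in TAMM27 KNO3 roots and 1688 to 3232 in TAMM27 KCl roots. With all 42 arrays none of these lists had a gene called in the average nitrogen response, in the interaction or in the Ts5 response. Without Var2-1 KNO3 replicate 1 the sole call was HPR1 in Ts5, against 0.818% of all probe sets called higher. Of 12 regulators of photosynthesis genes 0 were on hand.

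Markers of other tissues were read beside these results. Of 24 shoot markers other than photosynthesis genes, 5 had a probe set of their own, YAB3, YAB5, SPCH, FAMA and MUTE, leaf polarity and stomatal lineage factors, with mean signals of 7.21 to 41.3, all below 100. Their summed signal was 104.3 to 162.9 on TAMM27 arrays and 50.2 to 542.4 on the others, and 148.9 on Var2-1 KNO3 replicate 1, against 107.3 and 87.4 on its replicates. None of the 5 was called for TAMM27 or Kas2, and their part in the result was not tested further, since the abundant shoot transcripts of the list were not on hand. Of 18 root markers 2 were on hand. PYK10, an abundant root beta-glucosidase, had 5186 to 8414 on TAMM27 arrays and 2058 to 15016 on the others. EXPA7, an expansin of root hairs, had 13.2 to 45.7 on TAMM27 arrays and 8.4 to 509.9 on the others, and it was called lower in TAMM27 (-1.73 ± 0.44, adjusted p = 0.0111). The part of EXPA7-expressing cells in the TAMM27 result was not tested.

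The signals were made after probe elements had been discarded in accessions other than Col0, separately for KNO3 and KCl roots, out of 11 elements per probe set. For the 10 genes 0 to 7 elements were discarded, and the same elements were discarded in both treatments in 7 of 60 pairs of gene and accession. In TAMM27, PSBW lost 7 elements in KCl and 1 in KNO3 roots, and LHCB4.1 lost 0 in KCl and 4 in KNO3 roots. For CaS in Ts5, 1 element was discarded in KNO3 and 3 in KCl roots, and for RCA in Ts5 none in either. Treatment differences of these genes therefore compare partly different elements, and the part of this in the results was not tested.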

How the data were processed

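RNA from whole roots was hybridised to 42 ATH1 arrays. The authors ranked probe elements against Col0 in each accession and treatment and discarded outlying elements. They then computed MAS5 signals from the remaining elements, and these signal values (linear intensity) were used as deposited. The deposited lists of discarded elements (other values, without a scale) were read only to count elements. A table of normalized values given with the study sets the same values beside other probe set identifiers. The deposited identifiers were kept, since that table's flag for low signals fits them.

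Here log2(signal + 1) was fitted with limma 3.58.1 in R 4.3.3 (lmFit, eBayes with trend) as 14 group means over all 42 arrays and all probe sets that are not controls, with no signal filter. Contrasts were KNO3 minus KCl and each accession minus the average over the remaining 6. F-tests covered accession and its interaction with nitrogen, with Benjamini-Hochberg adjustment and a threshold of 0.1, as in the Methods. The number of arrays limits the precision.

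The members and the gene lists were chosen with earlier results of these data known. All members were named, with the 10 probe sets of highest correlation with their mean and up to 4 genes of a list. Alternatives covered scaling, pseudocount (16), signal filter (100), ordinary variances, a replicate block, RNA integrity (the mean of 6 control pairs), threshold and leaving out each array. A planned search of promoters for motifs was not run.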

Additional observations from a re-analysis of the deposited data

How the results depend on the processing

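Leaving out 1 array at a time gave 8 to 9 genes called among accessions, 0 to 1 in the interaction, 0 to 1 in the SQ8 response, 1 to 4 in the Ts5 response, and, against the other 6 accessions, 8 to 9 in TAMM27, 1 to 7 in Kas2, 0 to 1 in Col0 and 0 to 3 in Var2-1. The average nitrogen response had 0 in each case. Other settings moved the Kas2 count of 7 to 4 with ordinary variances, 3 with the RNA integrity covariate, 2 at a threshold of 0.05, and 0 over KCl arrays alone and over KNO3 arrays alone. The Col0 count of 1 became 0 under these same 5 settings. The TAMM27 count of 9 became 0 over KNO3 arrays alone, and Ts5 had 1 over KCl arrays alone, against 0 over both. For most of these settings and left-out arrays the share of all probe sets called is not given. The counts alone do not show whether calls were lost for these genes or for all probe sets. The cause was not tested. Comparisons over 1 treatment use fewer arrays.

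Leaving out 1 array at a time, the Var2-1 responses ranged from -0.0239 to 2.79 for PSBW, -0.11 to 1.49 for PSB27, -0.42 to 2.97 for LHCB4.2, -0.28 to 0.38 for LHCB4.3 and -0.20 to 2.73 for CaS, below 0 only without Var2-1 KNO3 replicate 1. The average response of LHCB4.3 ranged from -0.222 to 0.0437, above 0 only without SQ8 KNO3 replicate 1. Quantile normalization moved the median of all probe sets by -0.11 in the NFA8 response, and median scaling by 0.12 for Kas2, -0.19 for SQ8 and -0.11 for Ts5 against the others, and by -0.11 in the NFA8 response. The TAMM27 count was 9 under both scalings.

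Replicate numbers paired the arrays only in part. Same-numbered KNO3 and KCl arrays of an accession had deviations correlated above 0.1 in 8 of 21 pairs (-0.126 to 0.438). Of the 42 arrays, 20 correlated best with their own number. All pairs were above 0.1 in TAMM27 (0.255 to 0.438) and Var2-1 (0.153 to 0.269) but in no other accession. With the replicate number as a block 9 genes were called among accessions, 9 in TAMM27, 7 in Kas2, 1 in Col0 and 1 in the Ts5 response. A block for each accession and replicate number, added after the data were seen, covered only nitrogen responses and their interaction with accession. It called 0 in the TAMM27 and Var2-1 responses, against 0.114% and 0% of all probe sets. In the Ts5 response it called 1, against 1.24%, and in the average response and the interaction 0, against 0.523% and 0.0879%. With it, 6 of the 10 genes had an unadjusted p under 0.05 in the interaction, against 3 without it. Neither block changed a count of calls where it was fitted. Accession differences were not tested with such pairs. Signals near background limit LHCB4.3, CaS in most groups and LHCB4.2 in many. Over KCl arrays alone Kas2 had 3 without Var2-1 KNO3 replicate 1.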

Other observations

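Photorespiration and chlorophyll genes on hand did not all follow the 9 members that moved together. GLYK, the glycerate kinase of photorespiration, differed among accessions (adjusted p = 0.0181) but had its highest signal, 3266, in Kas2 KNO3 replicate 1, and differed by -0.13 ± 0.44 in TAMM27 from the other 6 accessions (adjusted p = 0.903). GSA1, which makes the chlorophyll and haem precursor aminolevulinate, differed by 0.01 ± 0.20 in TAMM27 (adjusted p = 0.975), and CHLI2, a subunit of magnesium chelatase, by 0.38 ± 0.47 (adjusted p = 0.673). PGRL1B, of cyclic electron flow, differed by 0.13 ± 0.35 (adjusted p = 0.870). On Var2-1 KNO3 replicate 1, CHLP had 8557, HPR1 7753, ATPC1 7512, PRK 4998 and SBPASE 2274, each its highest signal of the 42 arrays. Of the root markers on hand, PYK10 lay between 8991 and 10323 on the 3 Var2-1 KNO3 arrays. EXPA7 had 49.0 on Var2-1 KNO3 replicate 1, against 119.2 and 161.2 on its replicates. The 3′ to 5′ log2 ratio of that array, 3.91, was the highest of the 42, against 1.47 and 1.33 on its replicates. Var2-1 KCl replicate 1 had a ratio of 3.83, with a summed signal of the 10 genes of 61699 on the KNO3 array and 1065 on the KCl array. The part of RNA integrity in the signals of that KNO3 array was not tested.

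For some of these genes Col0 had 1 high array per treatment, as Kas2 had. RCA had 400.3, 210.1 and 879 in Col0 KNO3 roots and 297.4, 266.1 and 1015 in Col0 KCl roots, and PSBY had 165.9, 103.1 and 461.7 in KNO3 and 184.8, 136.4 and 562.5 in KCl. For RCA and PSBY the high Col0 arrays were labelled replicate 3 in both treatments. PSBW and CaS had no single high array in Col0 KCl roots. Their values there were 217.5, 317.9 and 321.3 for PSBW and 70.5, 109.7 and 106.5 for CaS. Nor had PSBY in Kas2 KCl roots, with 72.8, 57.5 and 95.4.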
